A study of Mus musculus with 9 samples.

Results

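Microglia are the resident macrophages of the brain, and 36 genes that mark them in their resting and activated states were followed in mouse hippocampus after RNA interference against Camta1, a calmodulin-binding transcription activator. The genes were chosen by symbol, with earlier results of these data known. Of them, 21 are markers of resident microglia (Aif1, Cx3cr1, P2ry12, P2ry13, Tmem119, Csf1r, Itgam, Trem2, Tyrobp, Fcrls, Siglech, Ctss, Gpr34, Sall1, Olfml3, Fcer1g, Laptm5, Cd68, Cd14, Cd52 and Cd53). The other 15 are genes known from activated microglia (Itgax, Cst7, Spp1, Lpl, Clec7a, Gpnmb, Apoe, Axl, Lyz2, Cybb, Cd84, Ctsd, Lgals3, Igf1 and Tlr2). All 36 were found among the 31804 genes of the table, and 36 of 36 passed the filter on low counts. Cst7 passed it through the shRNA B libraries: with shRNA A and control alone, 35 of 36 would pass.

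PolyA RNA was sequenced from 9 male C57BL/6NCrl mice, an inbred strain, with 3 animals per group according to the series' design. The dorsal hippocampus of mice aged 8 weeks received a recombinant adeno-associated virus (rAAV), and tissue was collected 3 weeks after injection. The virus expressed anti-Camta1 short hairpin RNA (shRNA) B, anti-Camta1 shRNA A or, in the control group, a non-targeting shRNA, so that animals of all groups carried a virus and a hairpin. Infected tissue was found by mCherry fluorescence and dissected, so each library holds a mixture of neurons, glia and vessel cells; the promoter and the serotype of the virus are not given in the sources used here.

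Resident microglia depend on Csf1r, the receptor of colony-stimulating factor 1 and interleukin 34, and carry receptors for fractalkine (Cx3cr1) and for nucleotides (P2ry12, P2ry13). Trem2 and several Fc and lectin receptors signal through the adaptors Tyrobp and Fcer1g, whose cytoplasmic tails carry activation motifs. In ageing, demyelination and neurodegeneration, mouse microglia are known to raise genes such as Itgax, Cst7, Clec7a, Axl and Apoe and to lower P2ry12 and Gpr34. Apoe, Lpl, Ctsd, Axl and Igf1 are also expressed by other cells of the brain.

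Totals were 29123744 to 38189288 counts per library. Levels are given as CPM, which divide each count by its TMM-scaled library total, and 1 read stood for 0.0258 to 0.0339 CPM. Camta1 lay between 145 and 266 CPM in the shRNA B libraries, between 174 and 254 CPM in the shRNA A libraries and between 426 and 455 CPM in the controls. Every shRNA library thus lay below every control. The shRNA groups overlapped (log2 fold change of shRNA B against shRNA A -0.0179, adjusted p = 0.987, edgeR), so Camta1 cannot check those labels against each other. Its log2 fold change was -1.02 ± 0.22 (SE) for shRNA B (adjusted p = 0.0776, edgeR) and -1.01 ± 0.22 for shRNA A (adjusted p = 0.388). Control replicate 3 stood apart by 934 CPM of Ttr, a choroid plexus gene, where the remaining libraries had 1.41 to 16.2 CPM. The resident label held in the tissue: Tmem119, P2ry12, Sall1, Siglech, Fcrls and Cx3cr1 were measured in every library, at 13.5 CPM or more.

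Promoters are shown for Ctss, Itgax and Cst7, which were among the genes called higher with shRNA B, and for Spp1, an activation gene that did not pass. They are RefSeq sequences of build GRCm38.p6, which is not the build of the counts (mm9), and run from 250 bases before to 50 after the start of the gene. Of the 36 genes, 29 matched this table, with 35 promoters. Capitals mark the letters GAGGAA on either strand, which lie within the binding site of the myeloid factor PU.1, and the core of the interferon-stimulated response element on either strand (GAAA, any 2 bases, GAAA).
Ctss (chr3:95526536-95526835, + strand): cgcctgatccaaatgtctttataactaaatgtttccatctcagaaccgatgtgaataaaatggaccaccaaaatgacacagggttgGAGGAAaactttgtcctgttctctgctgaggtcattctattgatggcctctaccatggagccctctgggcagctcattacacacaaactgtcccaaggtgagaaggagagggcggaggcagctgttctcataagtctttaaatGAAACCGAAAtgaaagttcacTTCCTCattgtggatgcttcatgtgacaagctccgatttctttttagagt
Itgax (chr7:128129300-128129599, + strand): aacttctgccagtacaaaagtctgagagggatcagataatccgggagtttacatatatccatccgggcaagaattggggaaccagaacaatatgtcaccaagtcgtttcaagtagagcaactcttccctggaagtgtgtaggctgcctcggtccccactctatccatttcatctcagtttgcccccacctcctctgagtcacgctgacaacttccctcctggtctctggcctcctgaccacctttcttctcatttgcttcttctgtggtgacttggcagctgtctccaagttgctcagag
Cst7 (chr2:150570165-150570464, + strand): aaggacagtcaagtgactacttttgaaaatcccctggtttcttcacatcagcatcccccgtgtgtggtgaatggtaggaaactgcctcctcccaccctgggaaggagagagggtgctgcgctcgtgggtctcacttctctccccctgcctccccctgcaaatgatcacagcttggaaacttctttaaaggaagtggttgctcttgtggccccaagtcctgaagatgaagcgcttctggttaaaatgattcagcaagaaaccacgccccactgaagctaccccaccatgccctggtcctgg
Spp1 (chr5:104434861-104435160, + strand): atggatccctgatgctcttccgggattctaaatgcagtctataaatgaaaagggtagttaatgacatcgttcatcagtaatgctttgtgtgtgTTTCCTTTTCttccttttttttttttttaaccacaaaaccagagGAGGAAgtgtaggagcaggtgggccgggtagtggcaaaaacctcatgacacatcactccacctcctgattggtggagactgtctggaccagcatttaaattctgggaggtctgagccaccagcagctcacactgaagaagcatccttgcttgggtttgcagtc

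The Ctss promoter holds both sets of letters, as does the printed promoter of Spp1, while the Itgax and Cst7 windows hold neither. Fcer1g and Tlr2 were also called higher with shRNA B, and their windows, not printed, hold neither as well. Spp1 has a second promoter in the table (chr5:104435942-104436241, + strand), not printed, which holds neither. GAGGAA was in 10 of 17 resident promoters (58.8%), in 9 of 18 activation promoters (50%) and in 28.3% of all 32851 promoters of the table. The interferon core was in 2 of 17 resident promoters (11.8%), in 2 of 18 activation promoters (11.1%) and in 3.44% of all promoters. The longer letters GAGGAAGT, which contain GAGGAA, were in 2 of 17, in 1 of 18 and in 3.2% of all. CGCG, the core of the box bound by CAMTA proteins, was in 3 of 17 resident promoters (17.6%), in 6 of 18 activation promoters (33.3%) and in 38% of all promoters. These counts are of promoters and not of genes. All 3 resident promoters with CGCG belong to Sall1. Both Clec7a windows, which overlap almost wholly, were counted for CGCG and for GAGGAA. Apoe promoters 1 and 3 were both counted for GAGGAA. A match of letters is a description of the window and does not show that a factor binds.

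With shRNA B against control, 2 of 21 resident genes rose (Ctss and Fcer1g) and 3 of 15 activation genes passed upward (Itgax, Tlr2 and Cst7, the last tested only because of its level with shRNA B), while none of the 36 fell. Over all 16438 genes tested, 1.02% were called, 0.779% higher and 0.237% lower, at an adjusted p under 0.05 in edgeR's quasi-likelihood test. The steepest members were 7.99-fold (Cst7) and 5.67-fold (Itgax) higher, whereas Ctss and Fcer1g were each 1.54-fold higher. The fitted log2 fold change was above 0 for 19 of 21 resident and 12 of 15 activation genes, with medians of 0.227 and 0.590, beside 50.3% of all genes and their median of 0.001. Without shRNA B replicate 2 the activation median was 0.319. Every shRNA B library lay above every control library for 13 of 21 resident and 7 of 15 activation genes, which held for 9.27% of all genes tested. None lay wholly below the controls, as 8.88% of all genes did. At an unadjusted p under 0.05, 13 resident and 8 activation genes were higher, beside 6.41% of all genes. The activation counts and medians, here and in the other contrasts, include Cst7. These lists and those further below were chosen with earlier results known, so the shares beside all genes are a description. In bulk tissue, more cells of a type and more RNA per cell cannot be told apart.

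**Figure D1:**
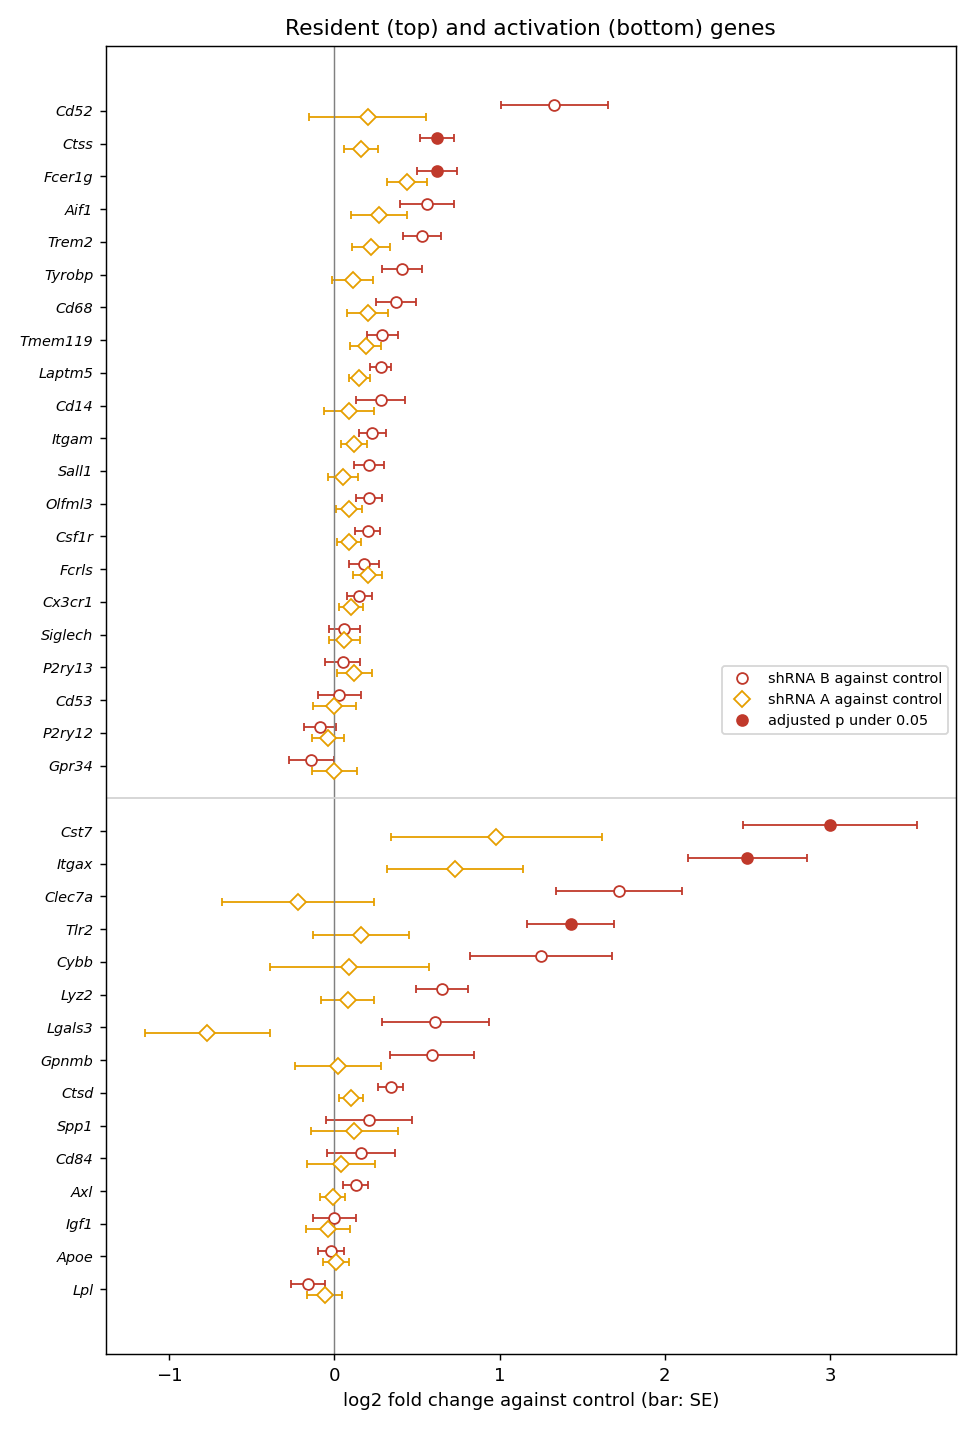
Log2 fold changes of the 36 microglia genes (horizontal axis) for shRNA B against control and shRNA A against control, by gene; bars are standard errors and filled points passed the adjusted threshold of 0.05. The 5 filled points are Ctss, Fcer1g, Itgax, Cst7 and Tlr2 with shRNA B, and no point with shRNA A is filled. Cst7 was tested only because of its level with shRNA B.

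The lysosomal genes included the protease of resident microglia that rose. Ctss (ENSMUSG00000038642, chromosome 3) encodes cathepsin S, a protease that trims the invariant chain of class II molecules. It had 73.2, 90.3 and 81.4 CPM with shRNA B, 68.7, 56.3 and 53.1 CPM with shRNA A and 56.4, 50.8 and 52 CPM in controls. All 3 shRNA B libraries stood above the other 6, and the shRNA A libraries overlapped the controls. The log2 fold change for shRNA B was 0.62 ± 0.10 (SE, adjusted p = 0.0220, edgeR). Without shRNA B replicate 2 its adjusted p was 0.0601, and without control replicate 1, 2 or 3 it was 0.0727, 0.098 or 0.0706.

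Cst7 (ENSMUSG00000068129, chromosome 2) encodes cystatin F, an inhibitor of lysosomal cathepsins. Its level was 0.698, 2.58 and 1.51 CPM with shRNA B, 0.319, 0.45 and 0.393 CPM with shRNA A and 0.17, 0.0955 and 0.315 CPM in controls. These levels rest on 27, 82 and 47 reads with shRNA B, 10, 14 and 12 reads with shRNA A and 5, 3 and 10 reads in controls. Both shRNA groups lay above all controls (0.319 CPM with shRNA A and 0.315 CPM in controls at their closest), and shRNA B lay above all of shRNA A. The log2 fold change for shRNA B was 3.00 ± 0.53 (adjusted p = 0.0274, edgeR). Since Cst7 passed the low-count filter only through the shRNA B libraries, where it is high, this p reads as a description; without the filter it was 0.0144. The call was lost without shRNA B replicate 2 (adjusted p = 0.0542), without shRNA A replicate 3 (0.0514) and without control replicate 1, 2 or 3 (0.141, 0.124 and 0.0567). It was also lost with limma-voom (0.0653) and in a fit of the 2 groups alone (0.105).

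Other lysosomal members lay higher with shRNA B without passing. Ctsd, the aspartic protease cathepsin D, had 404, 472 and 430 CPM with shRNA B, 382, 341 and 384 CPM with shRNA A and 335, 348 and 347 CPM in controls, so that shRNA B did not overlap either group (log2 fold change against control 0.34 ± 0.075, adjusted p = 0.0552, edgeR). Its exons overlap those of Gm49369 on the same strand in GENCODE M21, so some reads are uncertain. Lyz2, lysozyme of myeloid cells, had 6.31, 9.3 and 6.95 CPM with shRNA B and 4.44, 4.71 and 5.16 CPM in controls (0.65, adjusted p = 0.0767), and shares long stretches with its paralog Lyz1. For Laptm5, a lysosomal membrane protein, the levels were 38.4, 38.7 and 40.4 CPM with shRNA B and 30.6, 33.8 and 32.3 CPM in controls, a log2 fold change of 0.28 (adjusted p = 0.0652). Cd68, a glycoprotein of late endosomes, had 11.4 ± 1.96 CPM with shRNA B and 8.76 ± 0.53 CPM in controls (SD, n = 3 each; adjusted p = 0.215, edgeR). All 4 genes separated the shRNA B libraries upward from the controls, as 9.27% of all genes tested did. Gpnmb, also a lysosomal protein, did not. It had 9.61, 13.1 and 5.69 CPM with shRNA B and 5.73, 6.17 and 6.96 CPM in controls (adjusted p = 0.368, edgeR).

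Among the adaptors, Fcer1g rose. Fcer1g (ENSMUSG00000058715, chromosome 1) encodes the gamma chain that signals for Fc receptors, and had 7.73, 10.3 and 8.43 CPM with shRNA B, 7.79, 7.43 and 8.18 CPM with shRNA A and 5.25, 6.01 and 5.92 CPM in controls. Both shRNA groups stood above all controls and overlapped each other. The log2 fold change was 0.62 ± 0.12 for shRNA B (adjusted p = 0.0361, edgeR) and 0.44 ± 0.12 for shRNA A (adjusted p = 0.483). The shRNA B call was lost without shRNA B replicate 2 (adjusted p = 0.123), without shRNA A replicate 1 or 2 (0.0609 and 0.059), without control replicate 1, 2 or 3 (0.163, 0.106 and 0.0836), with limma-voom (0.0595) and with the 2 groups alone (0.0922). Tyrobp, the adaptor of Trem2, had 14.4, 19.2 and 17.2 CPM with shRNA B and 13.8, 12.7 and 11.6 CPM in controls (0.41, adjusted p = 0.158). Trem2, a receptor for lipids and apolipoproteins, had 14.9, 19.3 and 18.2 CPM with shRNA B, 14, 12.5 and 15.9 CPM with shRNA A and 12.4, 12.9 and 11.1 CPM in controls, and just missed the threshold (0.53 ± 0.12, adjusted p = 0.0537).

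The pattern-recognition receptors and integrins differed among themselves. Tlr2 (ENSMUSG00000027995, chromosome 3), a receptor for bacterial lipoproteins, had 1.71, 3.33 and 2.22 CPM with shRNA B, 0.926, 1.13 and 0.949 CPM with shRNA A and 0.678, 0.986 and 1.01 CPM in controls. The shRNA B libraries stood above all others, and the log2 fold change was 1.43 ± 0.27 (adjusted p = 0.0299, edgeR). Its call was lost without shRNA B replicate 2 (adjusted p = 0.0907), without control replicate 1, 2 or 3 (0.139, 0.102 and 0.0732), with limma-voom (0.0595) and with the 2 groups alone (0.0797). Clec7a, which encodes the beta-glucan receptor dectin-1, had 0.879, 1.89 and 1.13 CPM with shRNA B, 0.287, 0.515 and 0.196 CPM with shRNA A and 0.271, 0.509 and 0.378 CPM in controls. It separated shRNA B from the other 6 libraries without passing (1.72 ± 0.38, adjusted p = 0.0565, edgeR). Cd14, the coreceptor for lipopolysaccharide, overlapped between groups (0.28, adjusted p = 0.474).

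Itgax (ENSMUSG00000030789, chromosome 7) encodes CD11c, an integrin subunit that marks activated microglia and dendritic cells. It had 1.29, 2.95 and 1.9 CPM with shRNA B, 0.415, 0.772 and 0.589 CPM with shRNA A and 0.271, 0.445 and 0.346 CPM in controls. Read counts of Itgax were low: 50, 94 and 59 with shRNA B, 13, 24 and 18 with shRNA A and 8, 14 and 11 in controls. All shRNA B libraries exceeded the other 6, and the shRNA A libraries overlapped the controls. The log2 fold change of 2.50 ± 0.36 had the smallest adjusted p of the 36 genes (0.0109, edgeR). It passed in 15 of 17 alternative analyses and missed without control replicate 1 (adjusted p = 0.0713) and without control replicate 3 (0.0538). Itgam, the CD11b subunit carried by resting microglia too, was 1.17-fold higher (39.1 ± 3.16 CPM with shRNA B and 33.4 ± 0.498 CPM in controls, SD, n = 3 each; adjusted p = 0.249, edgeR).

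**Figure D2:**
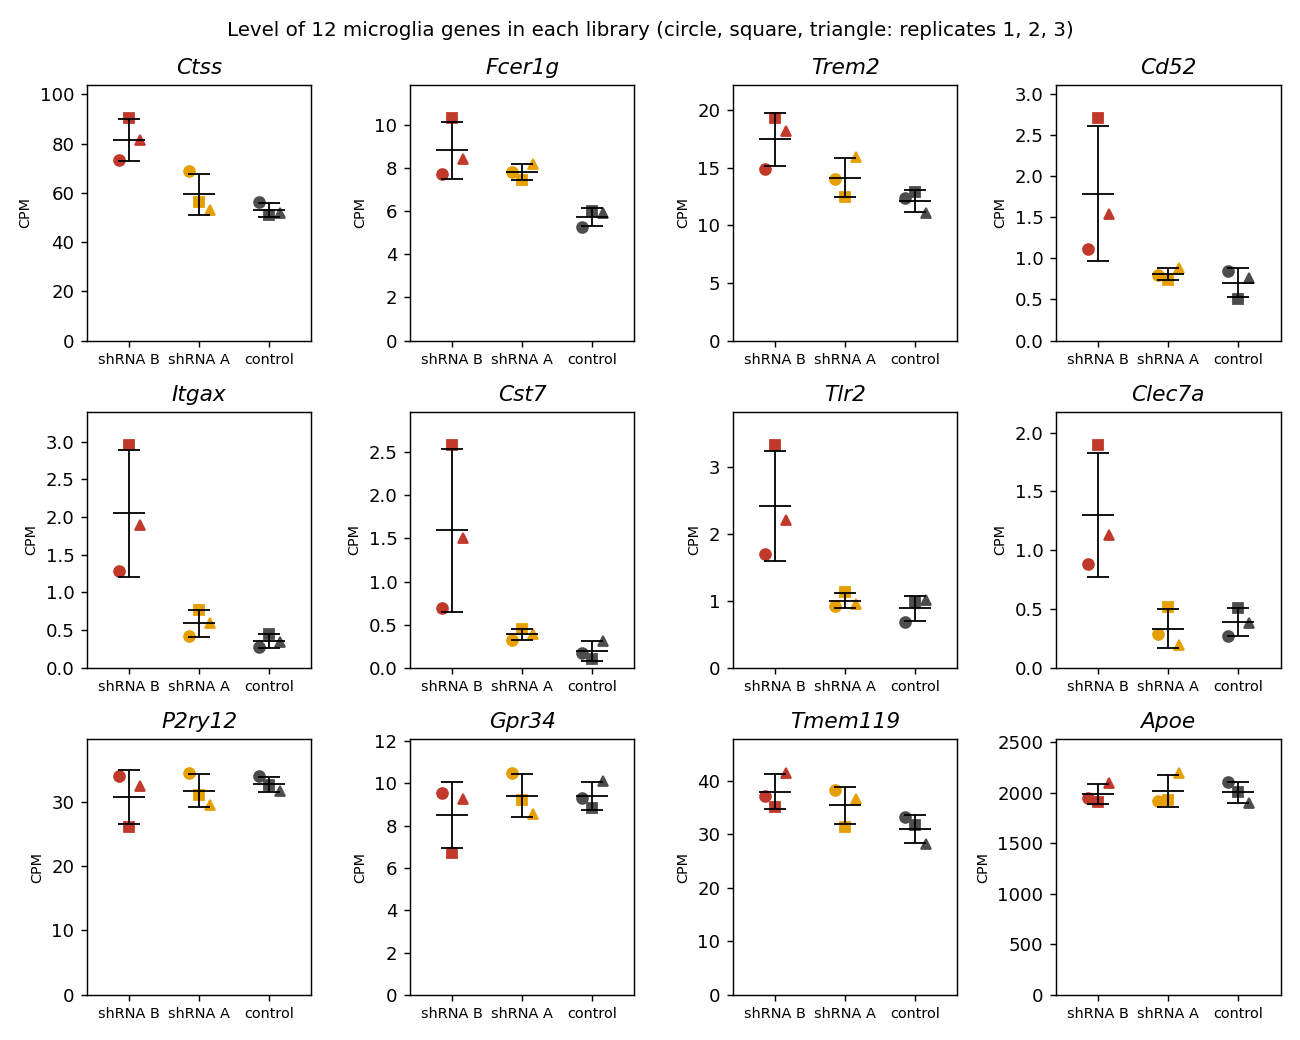
Levels in CPM (vertical axes) of 12 microglia genes in every library, grouped as shRNA B, shRNA A and control; symbols are replicates 1 to 3 and bars are mean ± SD. Itgax, Cst7, Tlr2 and Ctss lie higher in all 3 shRNA B libraries than in the 6 others, while P2ry12, Gpr34 and Apoe overlap between the groups.

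The markers of resident identity did not pass in either direction. P2ry12, the ADP receptor of resting microglia, had 33.9, 26 and 32.4 CPM with shRNA B, 34.5, 31 and 29.5 CPM with shRNA A and 33.9, 32.5 and 31.6 CPM in controls (-0.09 for shRNA B, adjusted p = 0.783, edgeR; 0.02 without shRNA B replicate 2). Gpr34, a lysophosphatidylserine receptor, had 9.54, 6.69 and 9.26 CPM with shRNA B and 9.29, 8.81 and 10.1 CPM in controls (-0.14, adjusted p = 0.731). For both genes shRNA B replicate 2 was the lowest of the 9 libraries. Cx3cr1 (0.15), P2ry13 (0.05), Siglech, a sialic acid-binding lectin (0.06), Sall1, a transcription factor of microglial identity (0.21), and Cd53, a leukocyte tetraspanin (0.03), overlapped between shRNA B and control. Tmem119 (0.29), Csf1r (0.20), Fcrls, an Fc receptor-like protein (0.18), Olfml3, a secreted protein (0.21), and Aif1, the actin-binding protein IBA1 (0.56), lay higher in every shRNA B library than in every control without passing. The adjusted p of these 10 genes was 0.164 to 0.95.

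The remaining members covered surface, lipid and secreted proteins. Cd52, a leukocyte surface glycopeptide, had 1.11, 2.7 and 1.54 CPM with shRNA B, 0.798, 0.74 and 0.883 CPM with shRNA A and 0.848, 0.509 and 0.755 CPM in controls (1.33 ± 0.32, adjusted p = 0.0835, edgeR). Axl, a receptor tyrosine kinase for dying cells, did not overlap with control (0.13, adjusted p = 0.531). Cybb, the oxidase subunit gp91phox (1.25), Gpnmb, a lysosomal glycoprotein (0.59), Lgals3, galectin-3 (0.61), Cd84, a SLAM family receptor (0.16), and Spp1, osteopontin (0.21), all had overlapping groups and adjusted p-values of 0.25 to 0.816. Apoe, the lipid carrier that astrocytes also make, had 1950, 1910 and 2100 CPM with shRNA B and 2110, 2010 and 1900 CPM in controls (-0.02, adjusted p = 0.965). Lpl, a lipase (-0.16), and Igf1, a growth factor (-0.00), also overlapped.

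With shRNA A against control, none of the 36 genes passed, as 0.0243% of all genes tested did. At an unadjusted p under 0.05, 3 resident genes (Fcrls, Fcer1g and Laptm5) and 0 activation genes were higher, beside 3.52% of all genes. DESeq2 called 0 of the 36, beside 0.201% of all genes, and limma-voom called 0 of the 36 and 0 of all genes. Every shRNA A library lay above every control for 3 resident genes (Fcer1g, Laptm5 and Cd68) and 1 activation gene (Cst7), beside 6.84% of all genes, and none lay wholly below, beside 5.65%. The log2 fold change was above 0 for 19 of 21 resident and 10 of 15 activation genes, beside 50.1% of all genes, with medians of 0.117 and 0.044, beside 0.000 for all genes. Fcer1g was 1.36-fold and Cst7 1.98-fold higher with shRNA A (0.98 ± 0.64, adjusted p = 0.784, edgeR), whereas Lgals3 had 0.351, 0.386 and 0.164 CPM with shRNA A and 0.373, 0.605 and 0.567 CPM in controls (-0.77, adjusted p = 0.741). This contrast uses the same control libraries as the shRNA B contrast.

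In the direct comparison of shRNA B with shRNA A, 0 of 36 genes passed in edgeR, and 0% of all genes did. DESeq2 called 1 resident gene (Ctss) and 4 activation genes (Itgax, Cst7, Clec7a and Tlr2) higher, beside 0.702% of all genes it tested (121 genes). Limma-voom called 0 of the 36 and 0 of all genes. At an unadjusted p under 0.05, 4 resident genes and 9 activation genes were higher and 0 lower, beside 4.55% of all genes that were higher. The 3 resident genes Ctss, Laptm5 and Cd52 were higher in every shRNA B library than in every shRNA A library, as were 7 activation genes (Itgax, Cst7, Clec7a, Lyz2, Ctsd, Lgals3 and Tlr2), beside 7.28% of all genes. Lpl was lower in every shRNA B library, beside 6.95% of all genes. The difference was above 0 for 16 of 21 resident and 13 of 15 activation genes, beside 50.5% of all genes. Median log2 differences were 0.120 for resident and 0.573 for activation genes, beside 0.002 for all genes. The smallest adjusted p was that of Itgax (1.78 ± 0.33, adjusted p = 0.117, edgeR), and Clec7a differed by 1.94 ± 0.39 (0.158).

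For the mean of both shRNAs against control, 0 of 36 passed in edgeR, beside 0.0973% of all genes (0.073% higher and 0.0243% lower). DESeq2 called 2 resident genes (Ctss and Fcer1g) and 2 activation genes (Itgax and Cst7), beside 1.34% of all genes it tested (225 genes). Limma-voom called 0 of the 36 and 13 of all genes. Every shRNA library lay above every control for 3 resident genes (Fcer1g, Laptm5 and Cd68) and 1 activation gene (Cst7), beside 2.51% of all genes, and none lay wholly below, beside 2%. In that contrast 13 resident and 5 activation genes were higher at an unadjusted p under 0.05, beside 5.22% of all genes. The log2 fold change was above 0 for 19 of 21 resident and 11 of 15 activation genes, beside 50.5% of all genes, with medians of 0.186 and 0.223.

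The authors' deposited table holds a likelihood ratio test over the 3 groups, whose adjusted p was under 0.05 for 10 of the 36 genes, beside 2.51% of the genes with such a value (379 of 15093). In the authors' deposited table the smallest were 1.94e-07 for Itgax, 5.47e-06 for Cst7, 9.4e-06 for Ctss and 0.000293 for Tlr2. The authors' deposited table also gives adjusted p-values of 0.00115 for Clec7a, 0.00439 for Ctsd, 0.00807 for Fcer1g, 0.0151 for Lyz2, 0.018 for Trem2 and 0.0208 for Cd52. For Lgals3 the authors' deposited table gives no adjusted p. That test asks whether any group differs and not which, so these values stand beside those of the pairwise tests without a comparison.

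**Figure D3:**
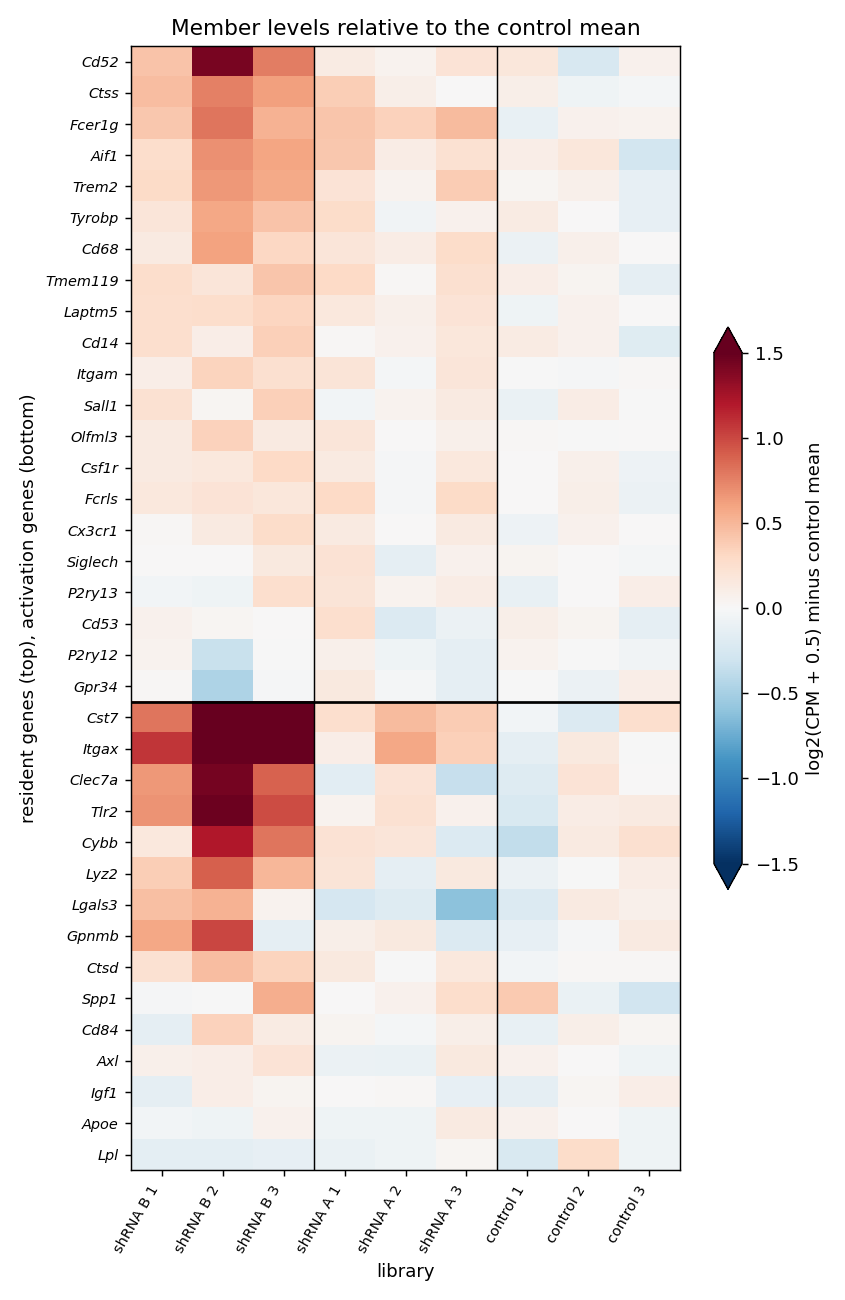
Levels of the 36 genes in each library as log2 differences from the control mean (colour, capped at 1.5 either way), with libraries in columns and genes in rows. Itgax, Cst7, Clec7a, Tlr2 and Cd52 are high in the shRNA B columns, and shRNA B replicate 2 is the highest library for 19 of the 36 genes.

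The shRNA B libraries differed among themselves. Replicate 2 was the highest of 9 libraries for 10 of 15 activation genes and 9 of 21 resident genes, beside 16.4% of all genes tested. A score per library was taken as the mean log2 difference from the control mean over members of at least 1 CPM. For the 21 resident genes it was 0.18, 0.31 and 0.32 with shRNA B, 0.20, 0.02 and 0.15 with shRNA A and 0.02, 0.02 and -0.04 in controls. The lowest shRNA B library and the highest shRNA A library overlapped, and shRNA A replicate 2 was level with the controls. For the 10 activation genes at that level, it was 0.15, 0.42 and 0.25 with shRNA B, 0.03, 0.01 and 0.07 with shRNA A and -0.04, 0.04 and 0.00 in controls. Itgax, Cst7, Clec7a, Cybb and Lgals3 averaged under 1 CPM and are not in it, although Itgax and Cst7 were called with shRNA B. Over all activation members the mean score with shRNA B was 0.520, beside 0.271 for the 10 genes and 0.270 for the resident genes. Tlr2 and Cd52 reached 1 CPM on average through shRNA B. With that cut on the control libraries alone, which leaves both out and was chosen after seeing the data, the activation score was 0.09, 0.30 and 0.17 with shRNA B, 0.03, -0.02 and 0.07 with shRNA A and -0.02, 0.03 and -0.01 in controls, and the lowest shRNA B library lay close to the highest shRNA A library. The resident score was then 0.17, 0.25 and 0.30 with shRNA B, 0.21, 0.02 and 0.14 with shRNA A and 0.01, 0.04 and -0.05 in controls. From the first scores, which include Tlr2 and Cd52 and leave out Itgax and Cst7, activation minus resident score was 0.11 in shRNA B replicate 2. It was -0.17 to 0.05 in the 8 other libraries. With the cut on controls, activation and resident scores were 0.30 and 0.25 in shRNA B replicate 2. In control replicate 3 they were -0.01 and -0.05. The lowest Camta1 level of the 9 libraries, 145 CPM, was also that of shRNA B replicate 2. Within shRNA A, replicate 2 had the lowest Camta1 level (174 CPM) and the lowest resident and activation scores (0.02 and 0.01). With shRNA B, replicate 3 had the highest Camta1 level (266 CPM) and the highest resident score (0.32). Whether the Camta1 level goes with these scores was not tested.

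Interferon response genes were also higher with shRNA B. With shRNA B, 11 of 14 rose, beside 0.779% of all genes tested that were called higher. Their median log2 fold change was 2.387, beside 0.001 for all genes. Their score was 1.38, 2.63 and 1.90 with shRNA B, 0.90, 0.92 and 0.13 with shRNA A and -0.04, -0.07 and 0.10 in controls. The highest value was again that of shRNA B replicate 2. Within shRNA A the order differed: replicate 2 had the highest interferon score with resident and activation scores of 0.02 and 0.01, and replicate 3 the lowest with 0.15 and 0.07. B2m, the light chain of class I molecules, had the smallest adjusted p of them (1.16 ± 0.12, adjusted p = 0.0061, edgeR), followed by the RNA sensor Ifih1 (1.59 ± 0.22, 0.0109), Rtp4 (2.25 ± 0.33, 0.0167) and Ifit3 (2.47 ± 0.33, 0.0207). B2m also rose in the mean of both shRNAs (adjusted p = 0.0214, edgeR), beside 0.073% of all genes called higher there. With shRNA A 0 of the 14 passed, beside 0.0243% of all genes. Their log2 fold change with shRNA A was above 0 for 14 of 14, beside 50.1% of all genes, with a median of 0.978. For 6 of the 14 every shRNA A library lay above every control, beside 6.84% of all genes. Whether the interferon response genes have a part in the levels of the microglia genes was not tested.

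**Figure D4:**
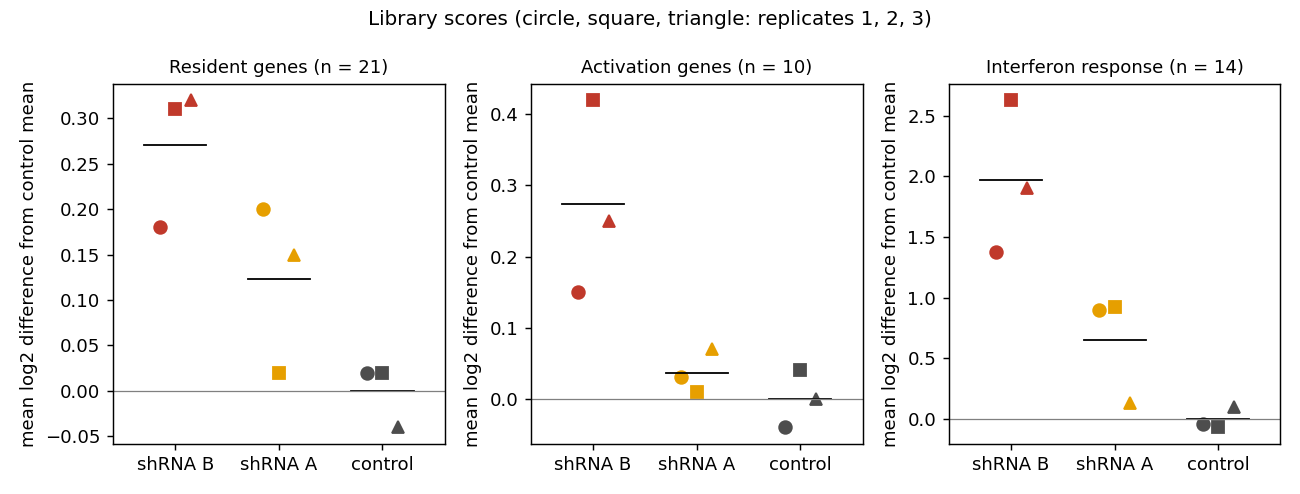
Scores per library (vertical axis, mean log2 difference from the control mean) of 21 resident genes, 10 activation genes and 14 interferon response genes, by group; each symbol is 1 library (circle, square and triangle for replicates 1, 2 and 3) and the line is the group mean. Resident scores reach 0.32 and activation scores 0.42 with shRNA B, beside 2.63 for the interferon response genes. Itgax, Cst7, Clec7a, Cybb and Lgals3 are not in the activation score.

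Other genes of microglia were read from lists. In the shRNA B contrast, 0.779% of all genes tested were called higher and 0.237% lower. Of 17 further resident genes, 5 rose with shRNA B. They were led by C1qc (0.61 ± 0.078, adjusted p = 0.00855, edgeR), C1qa (0.66 ± 0.09, 0.0109) and C1qb (0.62 ± 0.099, 0.0187), the chains of the complement starter C1q, and by Ly86 (0.55 ± 0.11, 0.0391). C1qa had 71.6, 89.4 and 84.9 CPM with shRNA B, 65.9, 57.2 and 60.8 CPM with shRNA A and 47.8, 55.6 and 51.9 CPM in controls, with no overlap between any of the groups. Of all genes tested, 9.27% had every shRNA B library above every control, and 6.84% had every shRNA A library above every control. For 7.28%, every shRNA B library lay above every shRNA A library. C1qc also rose in the mean of both shRNAs (adjusted p = 0.028, edgeR), beside 0.073% of all genes called higher there. With shRNA A 0 of 17 passed, beside 0.0243% of all genes. Of 14 genes of microglial receptor signalling, 1 rose with shRNA B: Fcgr1, the high-affinity Fc gamma receptor, had 4.83, 6.44 and 6.08 CPM with shRNA B and 3.22, 3.4 and 2.96 CPM in controls (0.85 ± 0.15, adjusted p = 0.0239).

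Of 7 myeloid transcription factors tested, 1 rose with shRNA B: Irf8, an interferon regulatory factor needed for microglia, had 8.14, 9.52 and 9.26 CPM with shRNA B, 6.55, 6.98 and 6.61 CPM with shRNA A and 4.54, 5.82 and 5.92 CPM in controls (0.72 ± 0.12, adjusted p = 0.0217, edgeR). Among 21 other activation genes, 2 rose: Gpr84, a receptor for medium-chain fatty acids (1.54 ± 0.28, adjusted p = 0.0255), and Lgals3bp (2.02 ± 0.34, adjusted p = 0.045). Beside both lists, 0.779% of all genes tested were called higher with shRNA B. Of 9 ligands of microglial receptors, among them Csf1, Il34 and Cx3cl1, 0 passed in any contrast, beside 1.02% of all genes with shRNA B. Their median was -0.005 for shRNA B, and 3 had an unadjusted p under 0.05 there. Of these 3 ligands, 2 were higher, beside 6.41% of all genes, and 1 was lower.

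Markers of other cells were at these levels. Beside the calls below, 0.779% of all genes tested were called higher and 0.237% lower with shRNA B. Of 8 border macrophage markers tested, 0 passed, and the 10 in the list summed to 33 to 36.6 CPM with shRNA B, 31.5 to 34.9 CPM with shRNA A and 28 to 39.1 CPM in controls. The 11 markers of blood monocytes and neutrophils summed to 1.13 to 2.96 CPM with shRNA B, 2.12 to 2.88 CPM with shRNA A and 2.32 to 2.49 CPM in controls, with Ly6g at 0 in every library; 2 were tested and 0 passed. The 13 lymphocyte markers, none of which reached the filter, summed to 0.646, 1.79 and 1.38 CPM with shRNA B, 0.703, 1.03 and 0.458 CPM with shRNA A and 0.678, 0.668 and 0.567 CPM in controls. The highest lymphocyte sum was that of shRNA B replicate 2, and its part in the microglia result was not tested. Of 8 astrocyte markers 1 rose with shRNA B, Aldh1l1, a folate enzyme (0.47 ± 0.07, adjusted p = 0.0137, edgeR). The log2 fold change was above 0 for 2 of the 8 and below 0 for 6, with a median of -0.044 and values from -0.48 to 0.64. The highest was that of another marker, which did not pass. In every shRNA B library 2 markers lay above and 2 below all controls, beside 9.27% and 8.88% of all genes. Of 8 meningeal and fibroblast markers 1 fell with shRNA B, the transporter Slc6a13 (-0.98 ± 0.19, adjusted p = 0.0376), and this list summed to 55.5 to 61.3 CPM with shRNA B, 53.2 to 67 CPM with shRNA A and 66.8 to 122 CPM in controls.

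Levels per length, as CPM per kilobase of annotated exon, ranged widely between the genes. In controls Apoe had 939 and Ctsd 146 CPM per kilobase, followed by Ctss with 39.1 and Csf1r with 23.1. Itgax had 0.0738 and Cybb 0.0808 CPM per kilobase in controls, the lowest of the 36. With shRNA B, Itgax had 0.426 and Cst7 1.62 CPM per kilobase, still below Ctss with 60.1. Exon lengths are unions over all GENCODE M21 transcripts and so understate genes with long rare isoforms.

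**Figure D5:**
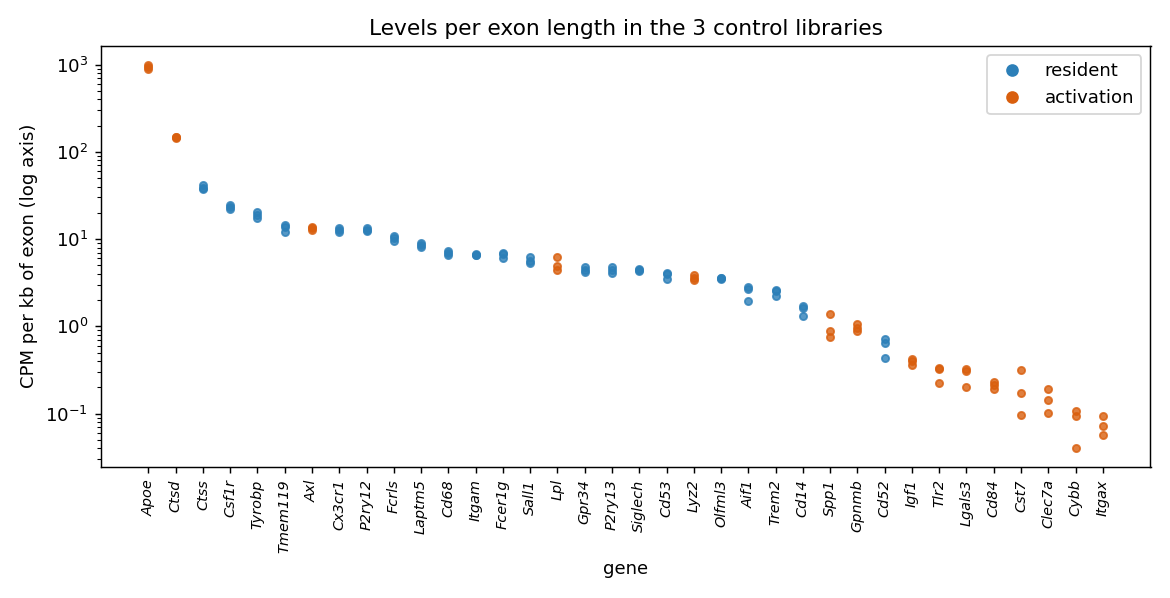
Level per length in the 3 control libraries (vertical log axis, CPM per kilobase of exon) of the 36 genes, ordered along the horizontal axis from the highest to the lowest mean; each point is 1 library and colour separates resident from activation genes. Means run from 939 for Apoe to 0.0738 for Itgax, and the 8 lowest genes are all activation genes.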

How the data were processed

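RNA of 9 libraries was measured, 3 each with shRNA B, shRNA A and control shRNA, grouped by their titles. For each Ensembl gene the authors deposited unnormalized counts of reads, per the file headers. The build mm9 and the tools HTSeq 0.6.1, TopHat 1.4.1, DESeq2 1.4.5, SAMtools 0.1.19 and R 3.1.1 are named in the submitters' processing notes; which gene annotation was used is not stated there. Libraries carry no strand, per the labels' protocols, so reads of overlapping genes cannot be told apart; Csf1r, Itgam, Cd52, Spp1 and Ctsd share at least 100 exon bases with another gene in GENCODE M21. The authors' deposited table also holds log2 fold changes against control, a mean normalized signal, and the score, p-value and adjusted p-value from a likelihood ratio test, per the file headers.

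Counts were fitted with edgeR 4.0.16 (limma 3.58.1, R 4.3.3): filterByExpr by group left 16438 of 31804 genes (8730 had 0 counts everywhere), libraries were scaled by TMM, and robust quasi-likelihood tests used all 9 libraries. Tests are two-sided, with Benjamini-Hochberg adjustment over all genes tested and a threshold of 0.05. Standard errors (SE) of log2 fold changes were derived from the F statistic. CPM are TMM-scaled. Scores add a pseudocount of 0.5 CPM before the log2. The filter needs about 10 reads in 3 libraries, and 3 reads stood for 0.0775 to 0.102 CPM; this precision covers counting error only. Alternatives were library scaling, the filter, DESeq2 1.42.0, limma-voom, robust estimation, a replicate block, the 2 groups alone and each library left out. The test was checked on simulated counts. The 36 members and the other lists were chosen with earlier results of these data known. All members may be named; from another list at most 4 genes past the threshold are named, in order of adjusted p. One listed symbol, Bin2, was not analysed here.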

Additional observations from a re-analysis of the deposited data

How the results depend on the processing

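Depth limits the low members: in controls Cst7 had 5, 3 and 10 reads, Itgax 8, 14 and 11, and Clec7a 8, 16 and 12. The count of resident genes called with shRNA B was 2; it was 4 with scaling by library size alone, 4 without the low-count filter, 5 with DESeq2, 1 with limma-voom and 1 with the 2 groups alone. For activation genes it was 3, and 6, 6, 1 and 1 without the filter, with DESeq2, with limma-voom and with the 2 groups alone. For the mean of both shRNAs it was 0 for each list; without the filter 1 resident and 1 activation gene passed, with DESeq2 2 and 2. For shRNA B minus shRNA A, also 0, DESeq2 called 1 resident and 4 activation genes, and 2 activation genes passed without the filter. Without the filter the calls over all genes also rose, from 167 to 208 with shRNA B. They rose from 16 to 67 in the mean contrast and from 0 to 21 for shRNA B minus shRNA A. Deviations of same-numbered libraries correlated at -0.13 to 0.32, and those of differently numbered libraries at -0.21 to 0.18. The value of 0.32 was that of replicate 3 of shRNA B and of shRNA A. Whether same-numbered libraries share more than a number was not tested beyond these correlations. With a replicate block 1 activation gene passed in the mean contrast, and all other counts of member calls stayed within 1.5 times. The mean activation score with shRNA B was 0.271, and 0.520 over all members.

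Leaving out each library in turn gave 0 to 4 resident and 0 to 6 activation calls with shRNA B, with medians of 0.206 to 0.269 and 0.319 to 0.703. No resident gene was called without shRNA B replicate 2 or without control replicate 1, 2 or 3; no activation gene was called without control replicate 1 or 3, and 1 (Itgax) without control replicate 2 or shRNA B replicate 2. With shRNA A the calls stayed at 0, with medians of 0.081 to 0.181 and 0.005 to 0.063. The mean contrast gave 0 to 1 and 0 to 2 calls, with medians of 0.146 to 0.216 and 0.192 to 0.25. For shRNA B minus shRNA A the calls were 0 and 0 to 3, with medians of 0.066 to 0.152 and 0.275 to 0.626.

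Signs changed for members near 0, none of them called. With shRNA B the ranges over libraries left out were -0.163 to 0.022 for P2ry12, -0.057 to 0.113 for P2ry13, -0.237 to 0.000 for Gpr34, -0.036 to 0.079 for Cd53, -0.053 to 0.503 for Spp1, -0.012 to 0.317 for Cd84, -0.057 to 0.022 for Apoe and -0.072 to 0.074 for Igf1. By library size alone Apoe was at 0.004 and Igf1 at 0.018. With shRNA A they were -0.171 to 0.091 for Lpl, -0.669 to 0.048 for Clec7a and -0.093 to 0.038 for Axl. In the mean contrast they were -0.218 to 0.044 for Lpl and -0.258 to 0.066 for Lgals3. For shRNA B minus shRNA A the range was -0.112 to 0.040 for Fcrls, and 0.006 by library size alone. The causes were not tested.

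Over all genes, 167 were called with shRNA B; the count was 380 with DESeq2, 95 with limma-voom, 42 with the 2 groups alone, 62 without shRNA B replicate 2, 103 and 98 without shRNA A replicates 1 and 2, and 13, 23 and 19 without control replicates 1, 2 and 3. The split was 128 higher and 39 lower, and by library size alone 131 and 26.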

Other observations

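Oligodendrocyte markers, 6 genes, summed to 3260 to 6680 CPM with shRNA B, 4080 to 6360 CPM with shRNA A and 2890 to 4730 CPM in controls, and 0 of 6 passed in edgeR with shRNA B, where their adjusted p was at least 0.632. Pan-neuronal markers summed to 4940 to 5380 CPM with shRNA B, 5020 to 5430 CPM with shRNA A and 5210 to 5910 CPM in controls, and 0 of 6 passed with shRNA B. Beside both lists, 1.02% of all genes tested were called with shRNA B. The 6 endothelial markers summed to 183 to 186 CPM with shRNA B, 188 to 196 CPM with shRNA A and 187 to 201 CPM in controls. The 5 mural cell markers summed to 138 to 151, 148 to 150 and 143 to 159 CPM in the same groups.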
